A study of Bos taurus with 12 samples.

Results

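The Mediator complex and the RNA polymerases I, II and III were examined at the level of their subunit genes in female and male bovine blastocysts. A gene was taken as a member where its symbol began with MED and a digit, or with POLR1, POLR2 or POLR3 and a letter. This gave 60 of the 32637 genes of the count table, of which 29 belonged to Mediator, 8 to polymerase I, 13 to polymerase II and 10 to polymerase III. Of the 60 genes, 58 were autosomal, and the 2 others, MED12 and MED14, were X-linked. The rule itself uses symbols and no measured value.

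The study asked how the transcriptomes of female and male bovine embryos produced in vitro differ. Oocytes from slaughterhouse ovaries were matured, fertilised in vitro with frozen semen of a pair of bulls used in weekly rotation, and cultured to expanded blastocysts, which were collected on the seventh or the eighth day. Each blastocyst was cut, one piece was sexed by PCR, and each library was made from 2 pieces of same-sex embryos, each piece holding inner cell mass and trophectoderm. There were 6 Female and 5 Male libraries, with no treatment other than culture and no difference between the groups in the labels other than sex.

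Mediator is a large complex that carries signals from DNA-bound transcription factors to RNA polymerase II. Its head and middle modules touch the polymerase, its tail module receives activators, MED14 is the scaffold that joins them, and a separable kinase module (CDK8 or CDK19, cyclin C, MED12 or MED12L, MED13 or MED13L) can bind in the place of the polymerase. Polymerase I makes the large ribosomal RNA precursor, polymerase II makes messenger RNA, and polymerase III makes transfer RNA, 5S ribosomal RNA and other small RNAs. Some small subunits are built into all of the nuclear polymerases. In bovine embryos the genome of the embryo takes over transcription some cleavages before the blastocyst stage.

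Libraries held between 6664112 and 16162985 counts in females and between 9942952 and 21392764 in males. The members took from 0.316% to 0.365% of the counts of a female library and from 0.327% to 0.378% of those of a male library. Every member was counted in every library, with a lowest count of 7 (MED12L) and a highest of 7098 (POLR2G), and all 60 passed the filter on low counts (12802 genes in all). The summed count of the Y-linked genes ZFY, DDX3Y, EIF1AY and USP9Y was between 0 and 34 in female and between 1563 and 4645 in male libraries. The marker lists of the inner cell mass (3 genes), trophectoderm (6 genes) and hypoblast (4 genes) were counted in full in every library, as were 2 of the 6 cumulus cell markers. Male replicate 5 stood apart from the other libraries. It had the most counts, 21392764, but the fewest genes counted, 14937 against 16985 to 18550 in the others. Its summed trophectoderm markers were at 24400 CPM (counts relative to the scaled library total), against 4990 to 8140 in the other males and 3270 to 9770 in females, and its correlations with the other males were the 4 lowest among pairs of male libraries (0.861 to 0.887 of log2 CPM across genes). Its inner cell mass markers were at 818 CPM (448 to 625 in the other males and 396 to 465 in females), and its hypoblast markers at 170 CPM (267 to 429 and 196 to 551). Not every marker went with its list. Male replicate 5 was the highest library for 3 of the 6 trophectoderm and 1 of the 3 inner cell mass markers. It was the lowest for 1 of the 3 hypoblast markers tested. Its cumulus markers, at 16.6 CPM, lay within the range of the other males (5.38 to 29.5) and of the females (6.98 to 32.4). The main values that it moved are also given without it.

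Levels are CPM scaled with TMM factors, and differences are log2 fold changes of male over female with their standard errors (SE), so that negative values are higher in females. A gene was called at a Benjamini-Hochberg adjusted p under 0.1 and a fold change over 1.5 in edgeR's quasi-likelihood test across all 12802 tested genes. In that test 1 of the 60 members, MED12, was called, and it was higher in females. This is 1.67% of the members, beside 1.91% of all tested genes called in either direction and 1.5% called as higher in females. At an unadjusted p under 0.05 there were 7 members, or 11.7%, beside 13.2% of all tested genes. Of these 7, MED12 and MED14 were higher in females, and MED29, MED10, POLR2E, POLR2G and POLR2J were higher in males. No member of polymerase I or polymerase III was among them. The shares of the members were thus near those of all genes. The plot of the fold change of each subunit gene shows the same genes with their errors.

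**Figure D1:**
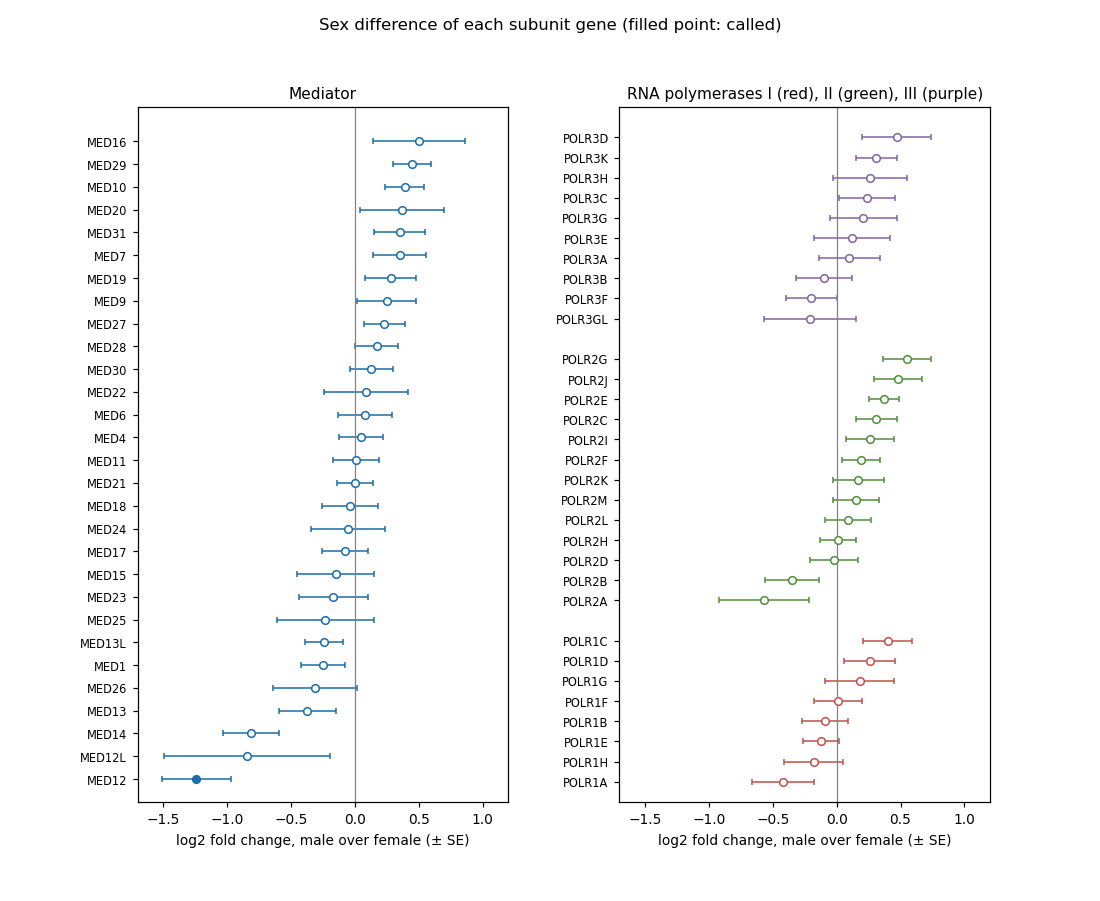
Log2 fold change of male over female (x axis, with SE) for each of the 60 subunit genes (y axis), with Mediator in the left panel and polymerases I, II and III in the right panel. MED12 at -1.24 has the only filled point, which stands for a called gene, and the other points lie between -0.84 and 0.55.

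MED12, which activates the kinase of the kinase module, lies at 79494942 to 79517415 on chromosome X of ARS-UCD2.0. Its level was 10.1, 11.6 and 14.5 CPM at the lowest, median and highest of the female libraries, and 7.53, 3.59, 6.24, 5.01 and 2.96 CPM in male replicates 1 to 5. No male library reached the lowest female library. The female mean was 12.1 ± 1.79 CPM (SD, n = 6) and the male mean 5.07 ± 1.88 CPM (SD, n = 5), a 2.36-fold higher level in females (log2 -1.24, SE 0.27, adjusted p = 0.0599). The difference was -1.12, -1.07 and -1.47 within the libraries whose names carry the first number 1, 2 and 3. The fold change stayed between -1.43 and -1.11 when each library was left out, but the call was kept in 5 of 11 such fits, with adjusted p between 0.0534 and 0.179. The fits that lost it left out female replicates 2, 4, 5 and 6 and male replicates 2 and 3. Without male replicate 5 the log2 fold change was -1.11, with an adjusted p of 0.0604.

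MED14, the scaffold, lies at 102666657 to 102843175 on chromosome X. It was at 30.5, 35.9 and 41.0 CPM (lowest, median, highest) in females and at 26.6, 26.4, 24.1, 17.3 and 11.3 CPM in male replicates 1 to 5. All female libraries were again above all male libraries. Means were 36.1 ± 3.53 CPM (SD, n = 6) and 21.1 ± 6.68 CPM (SD, n = 5). The log2 fold change of -0.81 (SE 0.22) did not pass the threshold (adjusted p = 0.123). It was -0.38 and -0.55 within library numbers 1 and 2 and -1.43 within library number 3, which holds male replicate 5, and it was -0.64 (adjusted p = 0.108) without that replicate. MED14 was called by DESeq2 in each of its 3 fits, and by edgeR with a filter of at least 1 count or of at least 50 counts in 5 libraries, with adjusted p between 0.0256 and 0.0933.

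MED12 and MED14 were the 2 of 60 members in which every female library was above every male library, as in 1.88% of all tested genes. Both are X-linked, and the pattern held for 139 of the 476 tested X-linked genes and 88 of the 12172 autosomal genes. Of the X-linked genes, 27.7% were called as higher in females. The median log2 fold change of tested X-linked genes was -0.85, near the value of MED14, and that of autosomal genes was 0.02. In the edgeR fit to all libraries none of the 58 autosomal members was called, beside 0.707% of 12172 tested autosomal genes. Of these members, 5 (8.62%) had an unadjusted p under 0.05, beside 11.1% of the autosomal genes. DESeq2 with the first number of the library name as a covariate called MED12 and MED14 alone among the members, where 4.17% of the genes it tested were called. With both numbers of the library name as covariates it called 5.49% of genes and, of the members, MED12, MED14 and the autosomal MED12L.

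**Figure D2:**
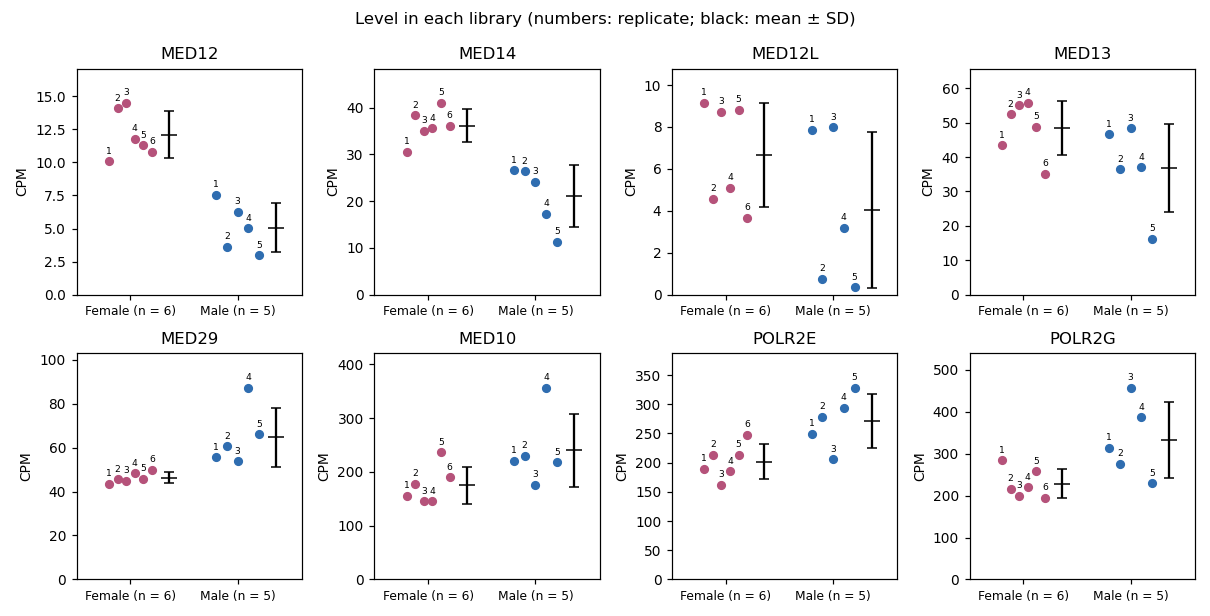
CPM in each library (y axes from 0) of 8 subunit genes in the 6 Female and 5 Male libraries (x axes), with replicate numbers above the points and the mean with SD in black. MED12 and MED14 do not overlap between the sexes, MED29 is higher in every male library, and MED12L ranges from 0.339 to 7.98 CPM among the males.

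The kinase module has 4 members, and the log2 fold change was negative in each, with a median of -0.6. MED12 is X-linked, and MED12L, MED13 and MED13L span 363, 97.6 and 283 kb. Autosomal members over 40 kb were mostly negative, as given below. Male replicate 5 was the lowest library for 3 of the 4, and without it the median was -0.39. MED12L, the paralog of MED12 on chromosome 1, was at 3.65, 6.9 and 9.14 CPM (lowest, median, highest) in females and at 7.86, 0.74, 7.98, 3.18 and 0.339 CPM in male replicates 1 to 5. Male replicates 1 and 3 were thus among the highest libraries and male replicates 2 and 5 were the lowest. The spread of MED12L within a sex, 1.3 on the log2 scale, was the largest of all members and exceeded that of 94.2% of tested genes. Its log2 fold change was -0.84 (SE 0.65, adjusted p = 0.638), and -0.47 without male replicate 5. It was -0.67, 0.21 and -1.82 within library numbers 1, 2 and 3. DESeq2 with both numbers of the library name gave -1.47 (adjusted p = 0.0325). The span of MED12L overlaps 5 protein-coding genes. Overlapping genes held 636 counts over all libraries, beside 7 to 124 counts of MED12L in a library, and such reads may not be separable.

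MED13, which holds the kinase module to the rest of Mediator, was at 35.1, 50.6 and 55.7 CPM in females and at 46.6, 36.4, 48.3, 37.0 and 16.2 CPM in the males. All males but replicate 5 lay within the female range, and the log2 fold change was -0.37 (SE 0.22, adjusted p = 0.517) with that replicate and -0.19 without it. Its paralog MED13L was at 39.8, 58.2 and 70.1 CPM in females and at 50.1, 52.7, 44.9, 36.9 and 45.8 CPM in the males, with a log2 fold change of -0.24 (SE 0.15, adjusted p = 0.527). The module's partners outside the rule, CDK8, CDK19 and CCNC, had log2 fold changes of -0.23, 0.00 and -0.03 and none was called. For CCNC, the cyclin, the female mean was 284 ± 28.4 CPM (SD, n = 6) and the male mean 277 ± 65.2 CPM (SD, n = 5).

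The other modules of Mediator had small differences in both directions. The head had 4 of 6 members with positive log2 fold changes and a median of 0.04, the middle 7 of 9 and 0.25 (0.14 without male replicate 5), and the tail 5 of 9 and 0.13. Over all 29 Mediator genes 16 were positive and the median was 0.01, as it was over all 12802 tested genes. MED29, a tail subunit, had the smallest p among Mediator genes higher in males. It was at 43.41, 45.66 and 50.05 CPM (lowest, median, highest) in females and at 55.6, 60.6, 53.7, 87.1 and 66.0 CPM in male replicates 1 to 5. Every male library was above every female library, the only such member and a pattern found in 1.43% of tested genes. Without male replicate 5, POLR2C shared it. Its log2 fold change was 0.45 (SE 0.15, adjusted p = 0.217), between 0.34 and 0.53 when each library was left out, and it passed the threshold in none of those fits. MED10, a middle subunit named here after its values were seen, was at 145, 167 and 236 CPM in females and at 220, 230, 176, 356 and 218 CPM in the males. Its groups overlapped, and the log2 fold change was 0.39 (SE 0.15, adjusted p = 0.28).

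Polymerase II had 10 of 13 members with positive log2 fold changes and a median of 0.17, which was 0.06 without male replicate 4 and 0.26 without male replicate 5. These 13 include the 5 subunits shared with the other polymerases, and of the 8 that are its own, 5 were positive, with a median of 0.21. POLR2M, taken in by its symbol, is a protein that binds the enzyme rather than a core subunit of it (log2 0.15). The 2 largest subunits, which form the catalytic centre, were on the other side. POLR2A, the largest subunit, was at 4.34, 5.09 and 11.7 CPM (lowest, median, highest) in females and at 3.39, 3.28, 6.24, 2.94 and 4.31 CPM in the males. Female replicate 1 was far above the others, and the log2 fold change was -0.57 (SE 0.35, adjusted p = 0.521), or -0.85 to -0.27 when each library was left out. POLR2B was at 104, 136 and 148 CPM in females and at 120, 111, 134, 103 and 45.3 CPM in the males. Male replicate 5 was the lowest by far, and the log2 fold change of -0.35 (SE 0.21, adjusted p = 0.517) became -0.17 without it.

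POLR2E, a small subunit common to all of the nuclear polymerases, had the smallest p among the polymerase genes. It was at 162, 201 and 248 CPM (lowest, median, highest) in females and at 249, 278, 206, 294 and 328 CPM in male replicates 1 to 5. All males but replicate 3 were above the highest female. The log2 fold change was 0.37 (SE 0.12, adjusted p = 0.214) and held between 0.33 and 0.41 when each library was left out. It was 0.39, 0.25 and 0.43 within library numbers 1, 2 and 3.

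POLR2G, which with POLR2D forms the stalk of the enzyme, had the highest log2 fold change of the members, 0.55 (SE 0.19, adjusted p = 0.234). It was named here after its values were seen. Female libraries were at 195, 218 and 284 CPM (lowest, median, highest), and male replicates 1 to 5 at 314, 276, 457, 387 and 229 CPM. Male replicates 1, 3 and 4 were above every female. The difference was 0.24 and 0.44 within library numbers 1 and 3 and 1.12 within library number 2, whose single male is replicate 3, and it was 0.34 (adjusted p = 0.573) without that replicate. Without male replicate 5 the log2 fold change was 0.65 and POLR2G was called (adjusted p = 0.0899), in a fit that called 2.81% of 12954 genes. Its partner POLR2D did not move with it, with a log2 fold change of -0.02. POLR2J, a small subunit of the assembly platform also named after its values were seen, was at 27.62, 28.95 and 35.06 CPM in females and at 31.3, 34.2, 44.0, 60.6 and 43.6 CPM in the males (log2 0.48, SE 0.19, adjusted p = 0.29).

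Subunits shared between the polymerases were also counted as groups of their own. All 5 that are common to polymerases I, II and III (POLR2E, POLR2F, POLR2H, POLR2K and POLR2L) had positive log2 fold changes, of 0.37, 0.19, 0.01, 0.17 and 0.09. The sign of POLR2H and POLR2L changed when male replicate 4 was left out, and that of POLR2H also with TMM factors from autosomal genes. The other 3 stayed positive, but without male replicate 4 POLR2F was at 0.09 and POLR2K at 0.01. Their SE with all libraries were 0.15 and 0.20. Only POLR2E stayed well above 0 when each library was left out (0.33 to 0.41). Without male replicate 5 the median of the 5 genes was 0.26. POLR1C and POLR1D, a dimer common to polymerases I and III, had log2 fold changes of 0.40 (SE 0.19, adjusted p = 0.389) and 0.26 (SE 0.20, adjusted p = 0.626). POLR1C was at 22.8, 31.1 and 37.0 CPM (lowest, median, highest) in females and at 34.9, 47.7, 32.5, 37.8 and 52.1 CPM in the males. The highest library for both genes was male replicate 5, and without it their log2 fold changes were 0.31 and 0.14.

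Polymerase I had as many positive as negative members (4 and 4) and a median log2 fold change of -0.04, which was 0.09 without male replicate 3. Without POLR1C and POLR1D, which it shares with polymerase III, 2 of 6 were positive and the median was -0.1. Its largest subunit POLR1A had the smallest p of those higher in females. It was at 5.78, 10.2 and 13.4 CPM (lowest, median, highest) in females and at 8.44, 8.35, 7.53, 7.23 and 5.62 CPM in the males, all within or below the female range (log2 -0.42, SE 0.24, adjusted p = 0.483). POLR1B, the second largest subunit, differed little (log2 -0.09, SE 0.18, adjusted p = 0.88, and -0.20 without male replicate 5). POLR1H, a small subunit of the catalytic part, had the largest spread of this enzyme within a sex, 0.51 on the log2 scale. Its level was 56.7, 96.4 and 101 CPM in females and 77.0, 49.1, 42.8, 102 and 119 CPM in the males, and its log2 fold change of -0.18 turned to 0.13 without male replicate 3.

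Polymerase III had 7 of 10 positive members and a median of 0.17, which was 0.08 without male replicate 5 and 0.06 without female replicate 1. POLR3K, a small catalytic subunit, had the smallest p of those higher in males. It was at 119, 132 and 158 CPM (lowest, median, highest) in females and at 138, 152, 186, 233 and 151 CPM in the males, 2 of which were above every female (log2 0.31, SE 0.16, adjusted p = 0.456). POLR3F, a subunit that takes part in initiation, was at 58.9, 71.5 and 88.4 CPM in females and at 68.8, 66.3, 74.7, 66.8 and 34.8 CPM in the males. The log2 fold change of -0.20 (SE 0.20, adjusted p = 0.729) was -0.02 without male replicate 5. The 2 largest subunits, POLR3A and POLR3B, had log2 fold changes of 0.10 and -0.10, each smaller than its SE and each changing sign when 1 male library was left out.

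POLR3G and POLR3GL are paralogs that occupy the same place in polymerase III, and POLR3G is known for its level in early embryos and pluripotent cells. POLR3G was at 11.3, 22.1 and 37.4 CPM (lowest, median, highest) in females and at 25.2, 23.8, 33.5, 27.0 and 14.0 CPM in the males. POLR3GL was at 1.7, 2.69 and 4.19 CPM in females and at 2.15, 2.22, 2.77, 2.22 and 3.15 CPM in the males. Neither differed between the sexes beyond the spread of the libraries (log2 0.21 and -0.21, adjusted p = 0.788 and 0.857). Without male replicate 5 the value for POLR3G was 0.35.

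Ratios between genes within a library do not depend on library size. The log2 ratio of MED12L to MED12 averaged -0.94 ± 0.62 (SD, n = 6) among female libraries, against -1.09 ± 1.47 (SD, n = 5) among male libraries. The ratio of MED13L to MED13 was higher by 0.21 in males on the log2 scale, that of POLR1A to POLR2A by 0.22 and that of POLR3A to POLR2A by 0.62. POLR3GL to POLR3G was lower by 0.33 in males, a difference of -0.33. In two-sided exact permutation tests the 5 ratios had p between 0.141 and 0.812 and adjusted p between 0.703 and 0.812, where the smallest p that the design allows is 0.00216. No difference in a ratio was therefore larger than the spread of the libraries, which does not show that the ratios are equal. Counts were not divided by transcript length here, so that the levels of different genes are not ranked.

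The direction of the difference went with the size of the gene, a relation that was looked at after the values were seen. Of the 23 autosomal members with a span under 10 kb in the annotation, introns included, 21 had a positive log2 fold change and the median was 0.26. Of the 20 with a span of 10 to 40 kb, 11 were positive with a median of 0.07, and of the 15 over 40 kb, 5 were positive with a median of -0.15. The same held for Mediator (9 of 10 positive under 10 kb and 3 of 10 over 40 kb) and for the polymerases (12 of 13 and 2 of 5). Among all 11593 tested autosomal protein-coding genes the shares were 64.8%, 58.3% and 39.1%, with medians of 0.15, 0.07 and -0.09. Across the 58 genes, which share the same 11 libraries and are not independent replicates, Pearson's r between log2 fold change and log10 span was -0.57 and Spearman's rank correlation -0.55. The rank correlation was between -0.56 and -0.44 when each library was left out, and was -0.57 in the 27 autosomal Mediator genes, -0.53 in the 31 polymerase genes and -0.23 in all 11593 genes. In the polymerase genes it was -0.29 without male replicate 4. No fit left out male replicates 4 and 5 together, so these values cannot show how far the relation rests on that pair. Over the 58 genes level also varied with fold change and with span. The rank correlation was 0.27 between log2 fold change and mean level and -0.32 between span and mean level. The latter was 0.06 in the autosomal Mediator genes and -0.57 in the polymerase genes.

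**Figure D3:**
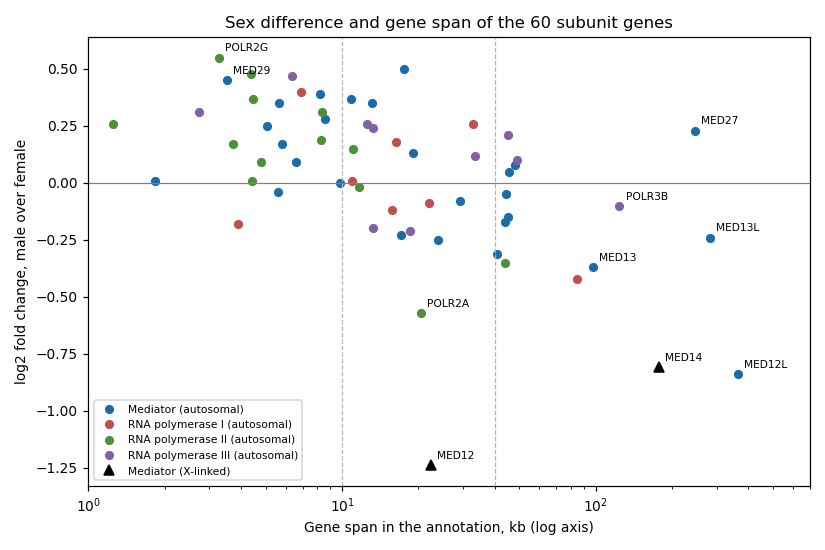
Log2 fold change of male over female (y axis) against gene span in kb on a log axis (x axis) for the 60 subunit genes, coloured by complex, with the X-linked genes as triangles and dashed lines at 10 and 40 kb. Most points left of 10 kb lie above 0 (21 of 23) and most right of 40 kb lie below it (10 of 15 autosomal genes).

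The relation to span was carried unequally by the libraries. The median deviation of the short members from their own means, less that of the long members, was between -0.4 and 0.12 in females. It was -0.12, 0.11, -0.27, 0.52 and 0.67 in male replicates 1 to 5. Male replicates 4 and 5 were thus above all other libraries, and the other 3 males lay within the female range. Male replicates 4 and 5 are the only males of library number 3, whose females, replicates 5 and 6, were at -0.29 and 0.12. Over all tested autosomal protein-coding genes the same quantity was also highest in male replicates 4 and 5, at 0.28 and 0.48. It was -0.28 to 0.12 in the others. The part of library number, RNA quality or library preparation in this relation was not tested. In these pooled embryos fewer cells of a type and less RNA per cell cannot be told apart.

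Most members were measured with little spread within a sex. The pooled within-sex SD of log2 CPM had a median of 0.33 over the members and 0.48 over all tested genes. By complex the median was 0.34 for Mediator, 0.32 for polymerase I, 0.27 for polymerase II and 0.38 for polymerase III. The tightest and the widest members were at 0.14 and 1.3.

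**Figure D4:**
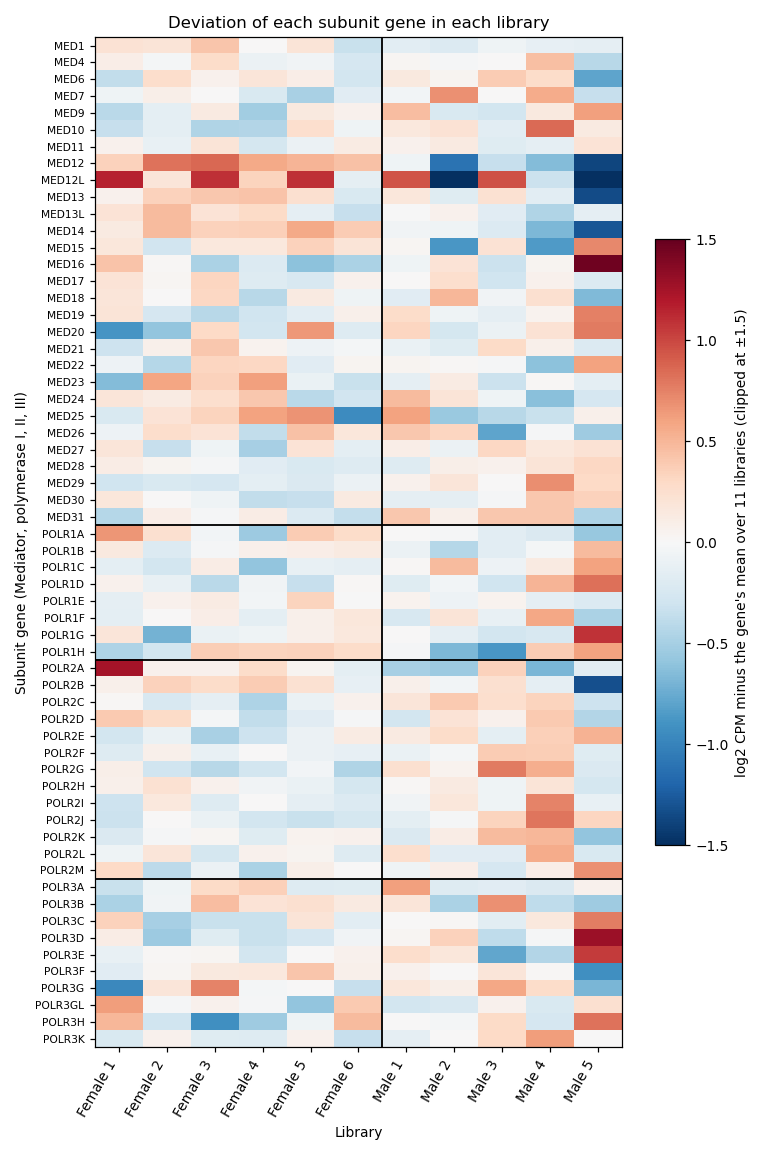
Deviation of log2 CPM from each gene's mean over the 11 libraries (colour, clipped at 1.5 in both directions) for the 60 subunit genes (rows, black lines between the complexes) in each library (columns, a black line between the sexes). The strongest colours are in MED12L and in male replicate 5, which was the highest or lowest library for 35 of the 60 genes.

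Male replicate 5 was the highest or the lowest of the 11 libraries for 35 of the 60 members (58.3%), beside 51.7% of all tested genes. In polymerase I it was so for 8 of 8 members, as the highest in 5 (POLR1B, POLR1C, POLR1D, POLR1G and POLR1H) and the lowest in 3. In polymerase II it was so for 5 of 13, in polymerase III for 6 of 10 and in Mediator for 16 of 29. The median deviation of the polymerase I genes in this library was 0.54 on the log2 scale, beside -0.14 in Mediator, -0.22 in polymerase II, 0.15 in polymerase III and -0.01 over all tested genes. POLR1G, for one, was at 31.7 CPM there and at 12.3 to 15.0 CPM in the other males. The summed trophectoderm markers of this library were also high, though it was the highest library for only 3 of those 6 genes. Its number of genes counted was the lowest, as given above. The part of either in these values was not tested. Without it the median log2 fold change was 0.04 in Mediator, -0.09 in polymerase I, 0.26 in polymerase II and 0.08 in polymerase III.

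**Figure D5:**
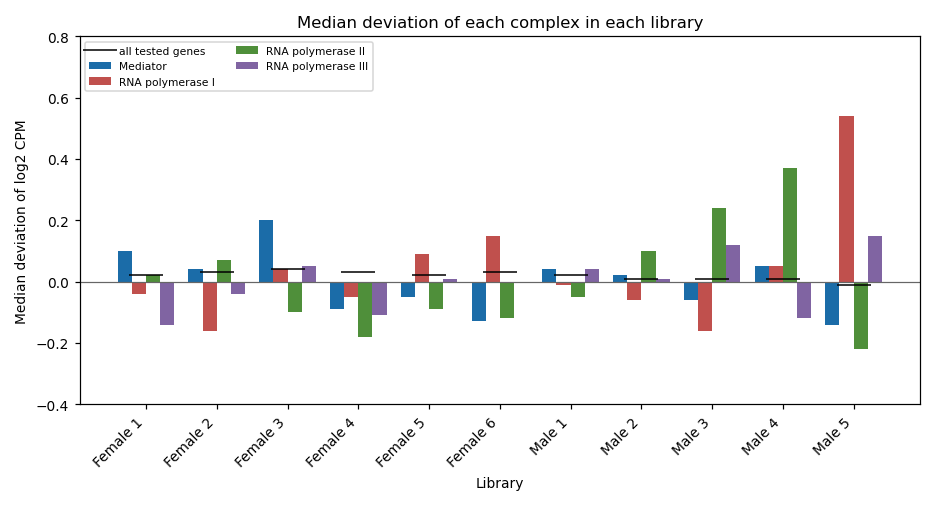
Median deviation of log2 CPM from the gene means (y axis) over the members of each complex (bars) and over all tested genes (black lines) in each library (x axis). Polymerase I stands at 0.54 in male replicate 5 and polymerase II at 0.37 in male replicate 4, while the lines of all tested genes stay near 0.

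Factors that work with these complexes were taken from lists and are no members. Of 85 such genes tested, 1 was called, TAF1, the largest subunit of TFIID, where 1.91% of all tested genes were called. An unadjusted p under 0.05 was found for 7 (8.24%, beside 13.2% of all tested genes), 2 higher in males and 5 higher in females. TAF1 is X-linked and was at 22.7, 38.3 and 48.4 CPM (lowest, median, highest) in females and at 12.9, 16.5, 14.1, 15.1 and 20.2 CPM in the males, with no overlap (log2 -1.15, SE 0.23, adjusted p = 0.0406). It was called in 7 of 11 fits that each left out 1 library. Of the 476 tested X-linked genes, 27.7% were called as higher in females, and in 139 every female library was above every male library. Of the 33 initiation factors of polymerase II, TAF1 was the only one called. In the fit to all libraries edgeR called none of 21 pausing and elongation factors, 7 polymerase I factors and 15 polymerase III factors. Nor did it call any of 6 assembly factors and 3 kinase module partners. Over these lists 4 genes had an unadjusted p under 0.05. ELL2, a pausing and elongation factor, was called in 1 of 11 fits that each left out 1 library.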

How the data were processed

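RNA-seq libraries were made with a SMART-Seq kit, which copies polyadenylated RNA in full length and does not mark strand. Per the labels and the methods, the authors used fastp 0.20.0 for trimming, STAR 2.7.10b for alignment to ARS-UCD2.0 (at most 3 mismatches) and featureCounts 2.0.3 for counting on genes. The authors deposited whole-number counts per gene without normalization. An Iso-seq sample of 4-cell embryos was not used here.

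Counts were analysed with edgeR 4.0.16 in R 4.3.3 (filterByExpr by sex, TMM factors, quasi-likelihood test of males against females, Benjamini-Hochberg adjustment over 12802 genes). The first number of the library name was the block, and whether it is the collection week, the study's covariate, is not given in the sources used here. The study used DESeq2 and reported 837 differentially expressed genes. DESeq2 with both numbers of the library name as covariates also called 837 genes here, and with the first number alone 655. Whether the 837 are the same genes was not checked. The common biological coefficient of variation was 0.403. CPM used TMM factors, log2 CPM a prior count of 2, and ratios a count offset of 0.5. Spans and positions came from RefSeq (ARS-UCD2.0). Of the members, 16 overlap the span of another protein-coding gene, and reads of such pairs may not be separable. Intervals and p-values cover the spread of these pools only. Python 3.11.15, pandas 2.3.3 and scipy 1.17.1 were used, and the scripts were tested on simulated counts.

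The members and gene lists were chosen with earlier results of these data known. Genes were named with values where called, X-linked, paralogous, among the largest or shared subunits, of smallest p in each direction, or of largest spread within their complex, and companions where called. Alternatives were a fit without the block, a replicate block, DESeq2 1.42.0 with and without covariates, other size factors, count filters, thresholds and pseudocounts, and fits without each library. Levels per transcript length were planned and not run, since no exon annotation was used here. One Mediator gene of the list was not analysed here. No 2 libraries of a sex were copies of each other (chi-square per degree of freedom at least 16.9).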

Additional observations from a re-analysis of the deposited data

Results flagged for a closer look

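Among 64 groups of libraries examined for a library far from the rest, 5 had one by Dixon's criterion, and chance gives about 1 in 20. POLR2A was at 11.7 CPM in female replicate 1, with the next female at 5.91 CPM. POLR3A was at 19.9 CPM in male replicate 1, with the next male at 13.4 CPM. POLR3F was at 34.8 CPM in male replicate 5, with the next male at 66.3 CPM. The log2 ratio of POLR3GL to POLR3G was -2.14 in male replicate 5 and -3.39 in the next male. The log2 ratio of POLR3A to POLR2A was -0.2 in female replicate 1 and 1.17 in the next female. The groups did not cover every member, so this list is not complete. For example, male replicate 5 was at 31.7 CPM for POLR1G and at 26.1 CPM for MED16. The next males were at 15.0 and 10.9 CPM.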

How the results depend on the processing

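Of the 60 members, 1 was called in the reported fit, as it was without a block, with RLE factors and with TMM factors from autosomal genes. With a replicate block, at an FDR of 0.05 and with the fold change of 1.5 itself tested the number was 0. It was 2 with DESeq2 with or without the library number and with filters of at least 1 count or of at least 50 counts in 5 libraries, and 3 with DESeq2 and both numbers of the library name. When each library was left out it was between 0 and 2, with 2 without male replicate 5 and 0 in the fits that left out female replicates 2, 4, 5 and 6 and male replicates 2 and 3. Under the replicate block MED12 had a log2 fold change of -1.35 (adjusted p = 0.127). The deviations of same-numbered female and male replicates 1 to 5 correlated at -0.111, 0.238, 0.351, 0.0283 and -0.0667. Replicates 1, 2 and 3 also share both numbers of the library name between the sexes. For library numbers 1, 2 and 3, the block of the reported fit, the correlations were 0.0124, 0.369 and 0.197. Such values cannot settle which libraries were collected together. Over the fits that left out a library the median log2 fold change was -0.02 to 0.06 in Mediator, -0.09 to 0.09 in polymerase I, 0.06 to 0.26 in polymerase II and 0.06 to 0.24 in polymerase III. MED12 was negative under every alternative run.

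Signs changed for some genes and ratios, none of them called. POLR2H was at -0.04 with the replicate block, at -0.01 with TMM factors from autosomal genes and at -0.01 with the filter of 50 counts. Leaving out a library gave ranges of -0.09 to 0.06 for POLR2H, -0.32 to 0.13 for POLR1H, -0.08 to 0.17 for POLR2L, -0.09 to 0.29 for POLR3A and -0.25 to 0.01 for POLR3B. Other members changed sign as well, such as MED25 (-0.5 to 0.06), POLR1G (-0.1 to 0.33) and POLR3E (-0.21 to 0.37). The counts of positive members per complex thus rest in part on signs that 1 library can change. The ranges of the ratio differences were -0.52 to 0.33 for MED12L to MED12 and -0.06 to 0.34 for MED13L to MED13. The cause of these changes was not tested. Pools were 6 against 5, and members at a few CPM, such as POLR3GL, had the fewest counts. Levels per transcript length, and their alternative with the longest transcript, were not run.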
